A study of Homo sapiens with 6 samples.

Results

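TGFβ signaling induces inhibitors of its own pathway. The 10 genes described here, SMAD7, SMAD6, SKIL, SKI, PMEPA1, BAMBI, SMURF1, SMURF2, TGIF1 and TGIF2, are grouped as negative feedback on it. Not all 10 were higher under TGFβ, as given below. They were chosen by gene symbol, and all 10 were present among the 21293 genes of the RNA-seq table. The cells were H2087-LCC, an established population of human lung adenocarcinoma (LUAD) cells that is a dormant metastatic derivative of the stage I tumor line H2087, obtained by selection in mice. Cultures were incubated with SB505124 (SB), which inhibits the kinase of TGFβ type I receptors, for 3 days, with TGFβ for 3 days or with TGFβ for 7 days, and each group had 2 libraries. SB blocks the signaling that the cells sustain by themselves, so the baseline is inhibited and not untreated, and no SB library was taken at 7 days. The 7-day TGFβ libraries therefore also differ from SB in time in culture, which cannot be told apart from the treatment. Replicates of this experiment are called technical in the study, so the errors may not cover variation between cultures. A level here is a share of the RNA of the whole culture, in which fewer cells expressing a gene and less of its RNA per cell cannot be told apart.

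TGFβ binds a complex of type II and type I receptor kinases, which phosphorylate SMAD2 and SMAD3, and these enter the nucleus with SMAD4 to control transcription. The feedback acts at each step. SMAD7 and SMAD6 are inhibitory SMADs that occupy receptors, with SMAD7 known for the TGFβ arm and SMAD6 mainly for the bone morphogenetic protein (BMP) arm. SMURF1 and SMURF2 are HECT ubiquitin ligases that SMAD7 recruits to the receptors. BAMBI is a pseudoreceptor without a kinase domain, and PMEPA1 is a membrane protein that holds back SMAD2 and SMAD3. SKI and SKIL (also called SnoN) are nuclear corepressors that bind the SMADs, and TGIF1 and TGIF2 are homeodomain corepressors of SMAD2 and SMAD3.

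The upstream sequences below were read from the GRCh37 genome, which is the hg19 build used by the authors. They hold the rarer SMAD-type matches of the group, which lay in front of 3 genes that rose. Commoner matches also lay in front of genes that fell, as given below. Each stretch has 120 bases, is written 5′ to 3′ on the strand of its gene and lies before the first annotated base of that gene in GENCODE. Capitals mark the palindromic SMAD binding element GTCTAGAC for SMAD7 and SMAD6, and the CAGA-type element CAGACA for SKIL, including its reverse complement TGTCTG. The stretches are at chr18:46478532-46478651 (minus strand) for SMAD7, chr15:66994454-66994573 (plus strand) for SMAD6 and chr3:170074999-170075118 (plus strand) for SKIL.
SMAD7: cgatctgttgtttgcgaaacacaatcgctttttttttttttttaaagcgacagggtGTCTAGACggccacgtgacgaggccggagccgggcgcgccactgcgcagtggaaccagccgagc
SMAD6: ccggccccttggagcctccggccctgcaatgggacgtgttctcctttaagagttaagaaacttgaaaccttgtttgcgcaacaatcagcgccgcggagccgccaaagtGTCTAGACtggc
SKIL: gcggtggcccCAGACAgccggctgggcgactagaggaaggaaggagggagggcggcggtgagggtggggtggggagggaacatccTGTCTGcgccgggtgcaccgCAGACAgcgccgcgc

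Both strands were searched in front of the canonical start of 19527 protein-coding genes, and no matches of different elements overlapped in the 10 genes. The palindrome lies 12 to 5 bases before the start of SMAD6, and 0.159% of all genes hold it within 250 bases. In SMAD7 it lies 1260 to 1253 bases before the start, and 1.18% of all genes hold it within 2000 bases, a window set after the first matches were seen. The 3 CAGA-type matches of SKIL lie between 494 and 394 bases before its start, and 1.15% of all genes hold 3 matches within 120 bases somewhere in the 2000. Only the single elements were planned, so the share for this cluster is a description. Single CAGA-type matches are common, with 69.7% of all genes and 5 of the 10 feedback genes (SKIL, PMEPA1, BAMBI, TGIF1 and TGIF2) holding one within 2000 bases. Within 250 bases none of the 10 did, against 11.0% of all genes. The GC-rich SMAD element GGCGCC was found within 250 bases of the start in SKIL, SKI, BAMBI and TGIF2, against 22.3% of all genes, and within 2000 bases in 7 of the 10, against 46.5%. SMURF1, which rose, and SMURF2 held none of these elements within 2000 bases. SKI and TGIF2, which were lower than SB at 7 days, did hold matches. A match describes letters and not binding, which was not measured here.

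The deposited values are counts normalized by library size and rounded to whole numbers, and they summed to between 34306283 and 36340734 per library. The epithelial and LUAD markers fixed for the check (EPCAM, KRT7, KRT8, KRT18, KRT19, NKX2-1, NAPSA, SFTPB, SOX2 and SOX9) were above 0 in every library and summed to between 92967 and 128150. The 8 markers of blood, endothelial, red and liver cells summed to 62 to 83 in all libraries. PECAM1, at 36 to 67, was the highest of these, PTPRC was at 4 or less and HBB at 0 throughout. Of the epithelial and LUAD markers, 7 were lower and 1 (KRT7) higher at 3 days against SB, and 6 were lower and 2 higher (KRT7 and SOX9) at 7 days, and the part of this shift in the values below was not tested. TGFβ targets outside the feedback group responded. LTBP2, which encodes a latent TGFβ binding protein of the matrix, was 242 and 261 in the SB libraries, 7042 and 8575 at 3 days and 16149 and 14884 at 7 days. The SB libraries differed from each other, with the TGFβ target CTGF at 3032 in the first and 1724 in the second, and the surfactant gene SFTPB at 1104 and 8273. Among the feedback genes PMEPA1 and SMAD7 were also higher in the first SB library, while SMAD6, BAMBI and TGIF2 were higher in the second.

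After 3 days of TGFβ, 6 of the 10 feedback genes were higher than in SB (SMAD7, SMAD6, SKIL, PMEPA1, SMURF1 and TGIF1), 1 was lower (TGIF2), and SKI, BAMBI and SMURF2 did not pass the test. After 7 days, 7 were higher, now including BAMBI, 2 were lower (SKI and TGIF2), and SMURF2 did not pass. Between 7 days and 3 days, 5 were higher at 7 days (SMAD6, SKIL, PMEPA1, BAMBI and TGIF1) and 1 was lower (SKI). The test was limma's moderated test on log2(normalized count + 1), with Benjamini-Hochberg adjustment over the 14395 genes whose mean reached 10, and a threshold of 0.05. All 10 genes passed this filter, although SMAD6 did so only through the TGFβ groups, since its mean in SB was 5.5. The place of SMAD6 in these counts therefore partly follows from the filter. Of all genes tested, the test called 29.0% at 3 days against SB (14.9% higher and 14.0% lower), 54.5% at 7 days against SB (27.7% higher and 26.9% lower) and 33.2% between 7 and 3 days (17.0% higher and 16.2% lower). The median log2 fold change of the 10 genes was 0.76 at 3 days and 1.01 at 7 days against SB, beside -0.02 and -0.00081 for all genes tested. Between 7 and 3 days it was 0.27, beside 0.02 for all genes. A called difference with an absolute log2 fold change over 1 was found for 5 feedback genes at each time point against SB (SMAD7, SMAD6, SKIL, PMEPA1 and SMURF1), beside 8.80% of all genes at 3 days and 16.7% at 7 days. The members were picked as known feedback genes with earlier results of these data at hand, so these counts describe the group.

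**Figure D1:**
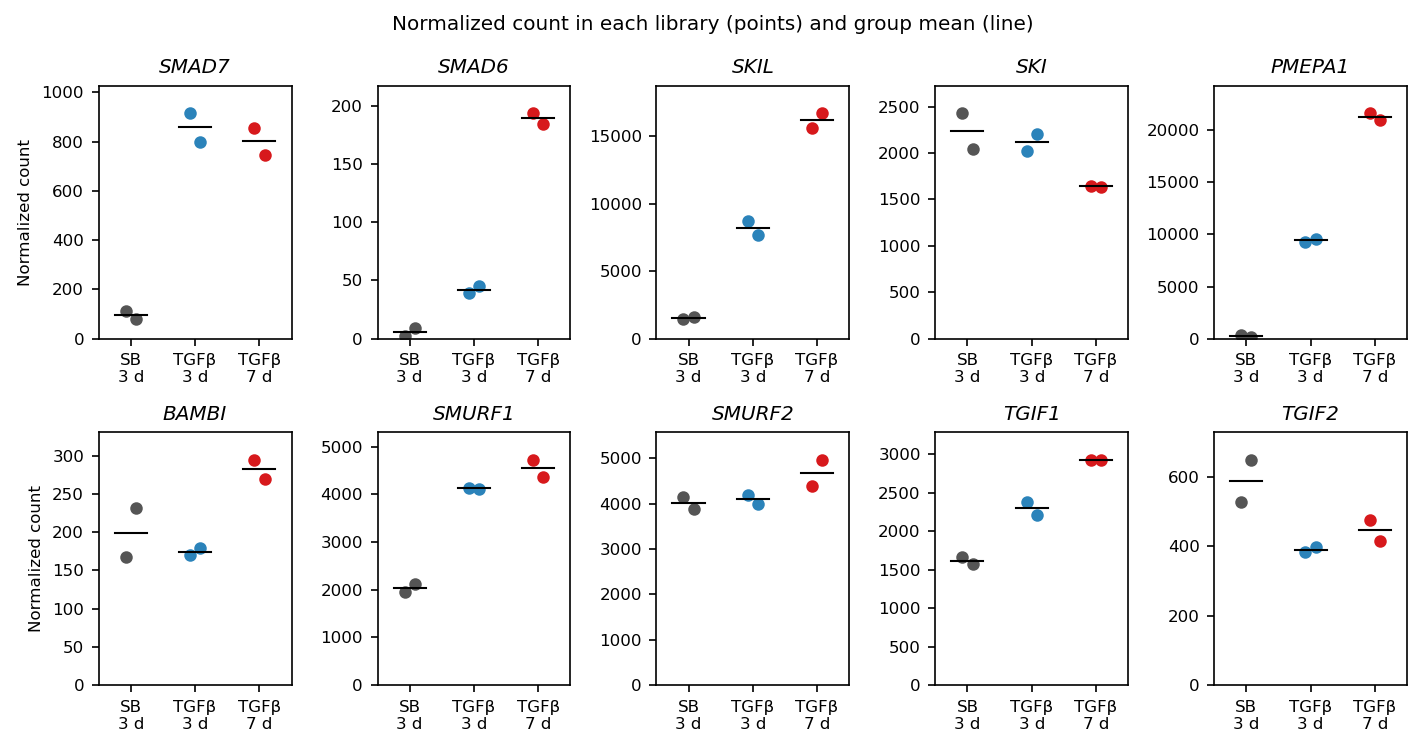
Normalized count (y axis, linear from 0) of each of the 10 feedback genes in SB, TGFβ 3 days and TGFβ 7 days (x axis); points are the 2 libraries of a group and lines their mean. PMEPA1, SKIL and SMAD6 climb from SB to 3 days to 7 days, SMAD7 and SMURF1 sit at a like level at 3 and 7 days, and SKI and TGIF2 are highest in SB.

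PMEPA1 had the largest fold change of the group. The gene lies on chromosome 20 of GRCh37 from 56223448 to 56286592, on the minus strand, and its product carries a SMAD interaction motif and PPxY motifs that bind ubiquitin ligases of the NEDD4 family. Its normalized count was 320 and 193 in the SB libraries, 9312 and 9610 after 3 days of TGFβ and 21675 and 21001 after 7 days. The 3 groups did not overlap, and the gene went from one of the lower to the highest of the 10. The ratio of the means to SB was 36.9 at 3 days and 83.2 at 7 days. On the log2 scale PMEPA1 was 5.24 ± 0.17 (standard error of the fit) above SB at 3 days (limma, adjusted p = 1.93e-09), rank 7 from the top among the 14395 genes tested. At 7 days the difference reached 6.42 (adjusted p = 1.20e-10), rank 13 from the top. From 3 to 7 days PMEPA1 rose by a further 1.17 on the log2 scale (adjusted p = 0.000527). With the second SB library left out, the log2 fold change at 3 days was 4.88, and with the first left out it was 5.61. In the annotation, 5.98% of its exon bases are shared with NKILA, a noncoding RNA on the opposite strand, and the library kit did not mark strand.

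SMAD7, the inhibitory SMAD of the TGFβ arm, lies on chromosome 18 from 46446223 to 46477335. It was 112 and 79 in SB, 916 and 799 at 3 days and 854 and 747 at 7 days. Both TGFβ groups stood far above SB and overlapped each other. The mean was 8.98 times that of SB at 3 days and 8.38 times at 7 days. The log2 difference from SB was 3.17 ± 0.17 (standard error) at 3 days, with an adjusted p of 8.54e-08 from limma, and 3.07 at 7 days, with an adjusted p of 4.76e-08. The difference between 7 and 3 days was -0.10 on the log2 scale (95% interval -0.47 to 0.27, adjusted p = 0.690). This interval leaves out a further rise as large as those of PMEPA1, SKIL or SMAD6, whose own differences were 1.17, 0.99 and 2.15, but the contrast between genes was not tested.

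SMAD6, the inhibitory SMAD known mainly from BMP signaling, lies on chromosome 15 from 66994574 to 67075187. It was nearly silent under SB, at 2 and 9, and was 39 and 45 at 3 days and 194 and 185 at 7 days. The 3 groups did not overlap, and the normalized count gained more between 3 and 7 days than before. The means were 5.5 ± 4.95 (SD, n = 2), 42 ± 4.24 and 189.5 ± 6.36, a ratio to SB of 7.64 at 3 days and 34.5 at 7 days. For a gene this low in SB the log2 size depends on the added constant, with 3.12 at 3 days for 0.5 and 2.24 for 5. On the log2(value + 1) scale SMAD6 exceeded SB by 2.97 ± 0.45 (standard error) after 3 days (adjusted p = 0.000388). After 7 days the difference was 5.12 (adjusted p = 2.26e-06). SMAD6 passed the filter only through the TGFβ groups, so these calls partly follow from it. With low genes kept in, the adjusted p was 0.0282 at 3 days and 0.00247 at 7 days. The rise from 3 to 7 days was 2.15 (95% interval 1.17 to 3.13, adjusted p = 0.00397), and it missed the threshold when low genes were kept in (adjusted p = 0.0621, from 4.49e-05 to 0.0621 over the alternatives). The low SB counts set the size of the first step, which was 2.10 without the first SB library and 3.84 without the second, and the 7-day difference was 4.25 and 5.99.

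**Figure D2:**
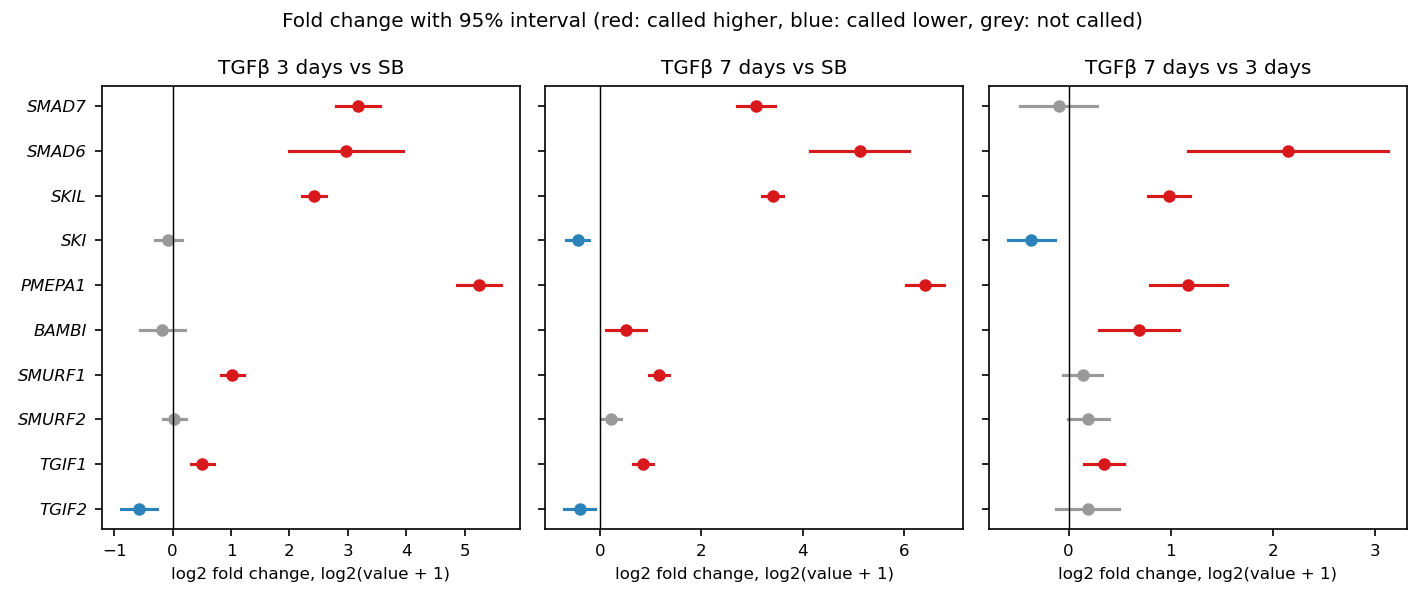
Log2 fold change on the log2(value + 1) scale (x axis) of each feedback gene (y axis) in the 3 comparisons, with bars for the 95% interval from limma; red and blue mark genes called higher and lower, grey those not called. SMAD7 is at 3.17 and 3.07 against SB but at -0.10 between 7 and 3 days, where SMAD6 (2.15), PMEPA1 (1.17) and SKIL (0.99) stand highest.

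SKIL and SKI are related corepressors that bind SMAD2, SMAD3 and SMAD4 and recruit histone deacetylase complexes, and they moved apart. SKIL, on chromosome 3 from 170075130 to 170114623, was 1452 and 1608 in SB, 8713 and 7657 at 3 days and 15652 and 16727 at 7 days. The 3 groups did not overlap, with means at 5.35 and 10.6 times that of SB. SKIL exceeded SB by 2.42 ± 0.09 (standard error) on the log2 scale after 3 days (adjusted p = 6.11e-09), and by 3.40 after 7 days (adjusted p = 1.44e-10). Its rise from 3 to 7 days was 0.99 (adjusted p = 3.36e-05), and 71.0% of its log2 change at 7 days was present at 3 days.

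SKI, on chromosome 1 from 2158827 to 2241652, was 2432 and 2041 in SB, 2028 and 2211 at 3 days and 1645 and 1637 at 7 days. The SB and 3-day libraries overlapped, and both 7-day libraries lay below them. The 3-day difference of SKI from SB was -0.07 on the log2 scale (95% interval -0.30 to 0.16, adjusted p = 0.644), with the sign turned to 0.05 without the first SB library. At 7 days SKI had fallen by 0.44 relative to SB (standard error 0.11, adjusted p = 0.00384). The fall of 0.37 from 3 to 7 days (adjusted p = 0.0197) was less firm. It did not pass the threshold without the second 3-day library (adjusted p = 0.124), the first 7-day library (0.0938) or the second 7-day library (0.107), nor with low genes kept in (0.0687) or with limma without a trend (0.0784).

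Per kilobase of exon, SKI was the more abundant of the pair in SB and SKIL in all TGFβ libraries. The normalized counts per kb of SKIL and SKI were 179 and 364 in the first SB library and 198 and 305 in the second. At 7 days they were 1928 and 246 in the first library and 2060 and 245 in the second. SKIL made up 33.0% and 39.4% of the pair in SB, 78.0% and 74.0% at 3 days and 88.7% and 89.4% at 7 days. These shares rest on the exon union of the annotation as length and were not tested.

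BAMBI, the pseudoreceptor, lies on chromosome 10 from 28966439 to 28971861 and behaved unlike PMEPA1. It was 167 and 232 in SB, 170 and 179 at 3 days and 295 and 270 at 7 days. The 3-day libraries lay within the range of SB, and both 7-day libraries were above all others. The 3-day difference of BAMBI from SB was -0.17 on the log2 scale (95% interval -0.57 to 0.22, adjusted p = 0.509) and turned to 0.06 when the second SB library was dropped. BAMBI was 0.52 above SB at 7 days (standard error 0.18, adjusted p = 0.0286), a call that ended without the first SB library (0.28, adjusted p = 0.187), without the first 7-day library (0.45, adjusted p = 0.152) and with that one kept but its partner left out (0.58, adjusted p = 0.0740). The call was also lost with equal library totals (adjusted p = 0.0562), with limma without a trend (0.0520) and with low genes kept in (0.0786), and over all alternatives the adjusted p ranged from 0.00463 to 0.187. The rise of 0.69 from 3 to 7 days (adjusted p = 0.0125) was also lost without the first 3-day library (adjusted p = 0.0621), the first 7-day library (0.0931) or the second (0.0535), and with low genes kept in (0.0609).

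SMURF1, a ubiquitin ligase named for SMAD regulation that acts on BMP SMADs, RhoA and, with SMAD7, the TGFβ receptor, lies on chromosome 7 from 98625063 to 98741731. It was 1945 and 2122 in SB, 4144 and 4122 at 3 days and 4731 and 4366 at 7 days. All TGFβ libraries were above all SB libraries, and the mean was 2.03 times that of SB at 3 days and 2.24 times at 7 days. SMURF1 exceeded SB by 1.02 ± 0.09 (standard error) on the log2 scale after 3 days (adjusted p = 4.58e-06), and by 1.16 after 7 days (adjusted p = 7.17e-07). Between 7 and 3 days it was 0.14 (95% interval -0.06 to 0.33, adjusted p = 0.258). The annotation gives 11.7% of the SMURF1 exon bases to TRRAP on the opposite strand as well, and TRRAP itself differed from SB by 0.02 at 3 days and by 0.0029 at 7 days on the log2 scale.

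SMURF2, its paralog, lies on chromosome 17 from 62538400 to 62658425 and did not pass the test in any comparison. It was 4145 and 3873 in SB, 4191 and 3996 at 3 days and 4398 and 4974 at 7 days. Its log2 difference from SB was 0.03 at 3 days (95% interval -0.17 to 0.23, adjusted p = 0.836) and 0.22 at 7 days (95% interval 0.02 to 0.42, adjusted p = 0.0558). The intervals leave out a change of the size of SMURF1. With equal upper quartiles, the value at 7 days was 0.25 and past the threshold (adjusted p = 0.0394). The value at 3 days turned to -0.03 with equal library totals. Per kb of exon, SMURF1 made up 35.0% and 38.6% of the pair in SB, 53.2% and 54.2% at 3 days and 55.3% and 50.2% at 7 days.

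TGIF1 and TGIF2 are homeodomain proteins that recruit corepressors to SMAD2 and SMAD3, and they also moved in opposite directions against SB. TGIF1, on chromosome 18 from 3411606 to 3459976, was 1659 and 1576 in SB, 2379 and 2211 at 3 days and 2917 and 2929 at 7 days. The 3 groups did not overlap. TGIF1 exceeded SB by 0.50 ± 0.09 (standard error) on the log2 scale after 3 days (adjusted p = 0.00130), and by 0.85 after 7 days (adjusted p = 1.05e-05). The rise of 0.35 from 3 to 7 days (adjusted p = 0.0119) was lost without the second 3-day library (adjusted p = 0.0990), the first 7-day library (0.0797) or the second (0.0893).

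TGIF2, on chromosome 20 from 35201891 to 35222353, was 527 and 650 in SB, 383 and 398 at 3 days and 476 and 415 at 7 days. Both SB libraries were above all TGFβ libraries. After 3 days TGIF2 had fallen by 0.58 on the log2 scale, with a standard error of 0.14 (adjusted p = 0.00878), a call lost without the second SB library (-0.43, adjusted p = 0.0586) or the first 3-day library (-0.56, adjusted p = 0.0509). At 7 days it had fallen by 0.40 relative to SB (adjusted p = 0.0318), a call lost without the second SB library (-0.25, adjusted p = 0.183) or the second 7-day library (-0.30, adjusted p = 0.221). It was also lost with low genes kept in (adjusted p = 0.0729) and with limma without a trend (0.0605). The adjusted p at 7 days ranged from 0.0122 to 0.221 over all alternatives. The annotation has a readthrough gene, TGIF2-RAB5IF, that shares 7.75% of the TGIF2 exon bases. Per kb, TGIF1 made up 60.6% and 54.3% of the pair in SB, 75.2% and 73.1% at 3 days and 75.0% and 77.5% at 7 days.

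**Figure D3:**
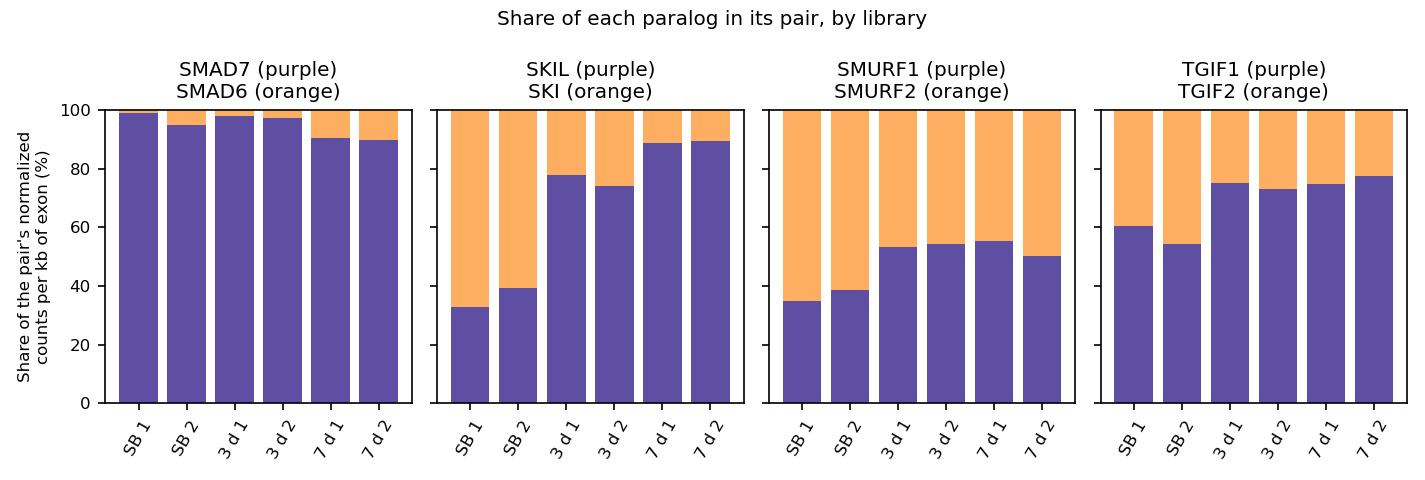
Share of each paralog in its pair's normalized counts per kb of exon (y axis, percent) in each of the 6 libraries (x axis); purple is the first gene of the pair and orange the second. SKIL goes from 33.0% and 39.4% in SB to 88.7% and 89.4% at 7 days, while SMAD7 stays at 89.7% or more of its pair throughout.

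Within the inhibitory SMADs, SMAD7 was the more abundant per kb of exon in every library. The normalized counts per kb at 7 days were 216 and 189 for SMAD7 and 22.7 and 21.6 for SMAD6. The share of SMAD6 in the pair was 0.817% and 4.99% in SB, 1.93% and 2.53% at 3 days and 9.48% and 10.3% at 7 days, so the 3-day libraries lay within the range of SB and only the 7-day libraries above it. Levels per kb were planned only between paralogs, so an order over all 10 genes is a description and was not tested. It depends in part on the exon union taken as length. This union was 8121 bases for TGIF1, with 13 annotated protein-coding starts, and 2139 bases for BAMBI, with 1. At 7 days the order of the mean level per kb was led by PMEPA1 (3781 and 3664 in its libraries), followed by SKIL (1928 and 2060). SMURF1 (753 and 695) and SMURF2 (610 and 690) came next, with the lower SMURF1 library close to the higher SMURF2 library. TGIF1 was at 359 and 361, SKI at 246 and 245, and SMAD7 at 216 and 189. BAMBI (138 and 126) and TGIF2 (120 and 104) followed, and SMAD6 was last. In SB the lead was with SMURF2 (575 and 537), and PMEPA1 (55.8 and 33.7) was above SMAD7 (28.4 and 20.0) and SMAD6 (0.234 and 1.05) alone.

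The time course also separated the genes that rose. The part of the 7-day log2 change against SB already present at 3 days was 103% for SMAD7, 88.2% for SMURF1, 81.7% for PMEPA1, 71.0% for SKIL, 59.0% for TGIF1 and 58.0% for SMAD6. For BAMBI, called higher than SB at 7 days only, the value was -33.5%, since its 3-day difference was below SB and not called. These percentages share the SB libraries in both terms and are given as a description.

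**Figure D4:**
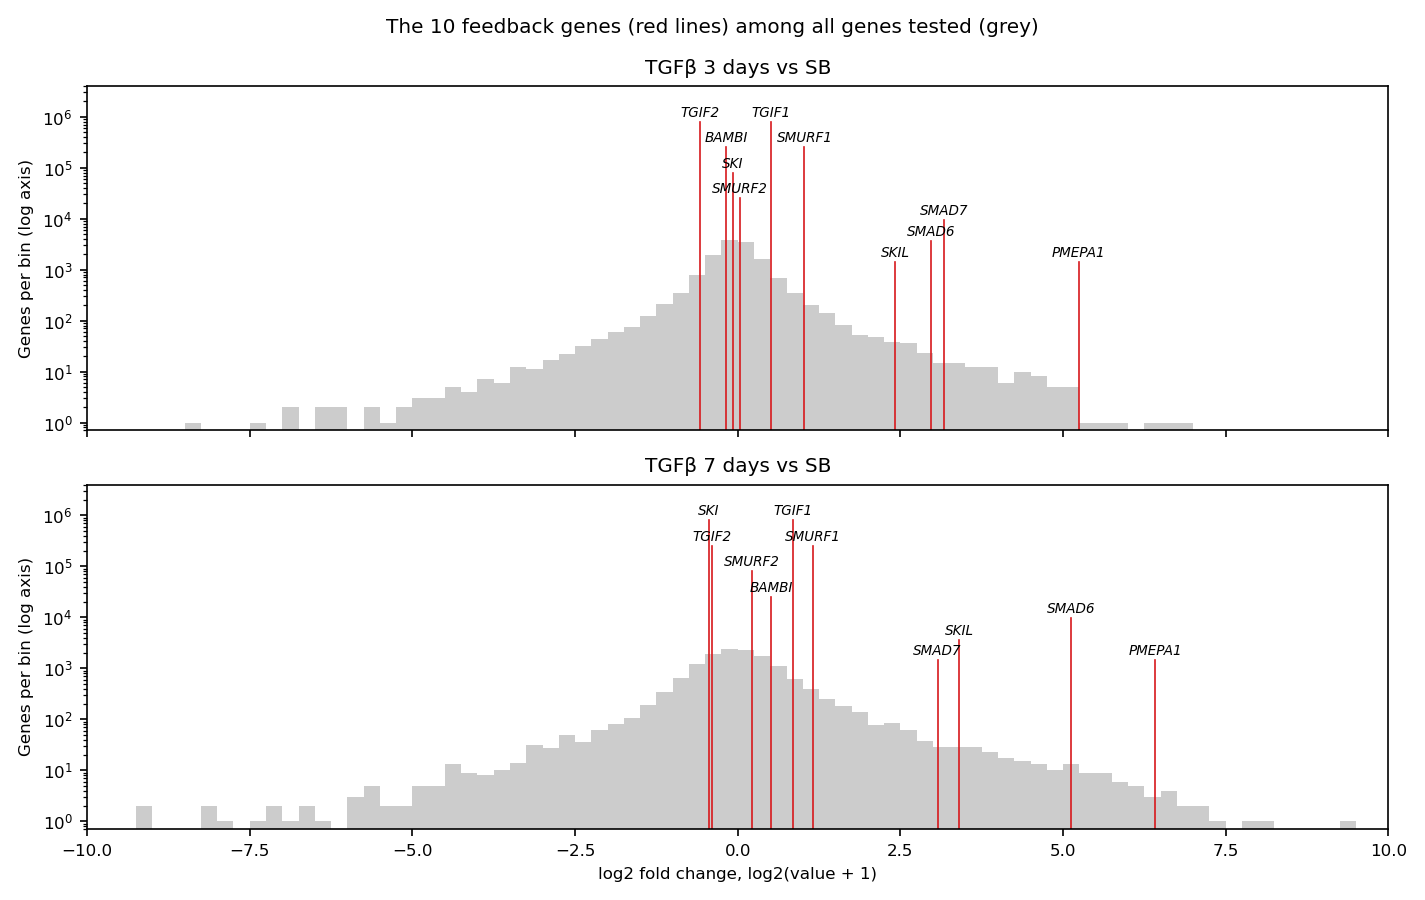
Number of genes (y axis, log axis) by log2 fold change against SB on the log2(value + 1) scale (x axis) at 3 days (top) and 7 days (bottom), for the 14395 genes tested in grey and the 10 feedback genes as red lines, whose height only sets the labels apart. PMEPA1 (5.24 and 6.42), SMAD7, SMAD6 and SKIL lie in the right tail. SMURF1 (1.02 and 1.16) stands between these and the bulk, and the others lie near the bulk.

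Genes with the most similar profile were sought among those with a mean of at least 100, by the Euclidean distance between the 6 log2 values of each gene centred on their mean. The distance was shortest to IL11 for PMEPA1 (0.21), with IL11 at 13 and 8 in SB, 385 and 443 at 3 days and 1045 and 869 at 7 days. IL11 encodes a cytokine of the IL-6 family. THBS1, which encodes thrombospondin 1, an activator of latent TGFβ, was nearest to SMAD7 (0.41), at 5543 and 4052 in SB, 58242 and 51318 at 3 days and 48951 and 49270 at 7 days. The metalloproteinase gene ADAM19 was nearest to SKIL (0.36), with log2 fold changes of 2.66 and 3.60 against SB. STRA6, the receptor for retinol-binding protein, was nearest to SMAD6 (0.84), with 2.98 and 5.79. For BAMBI the nearest gene was HLA-E (0.06), at -0.19 and 0.50. Such likeness over 6 libraries is a description of profiles.

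The rest of the pathway was taken from 6 lists, and members named beyond the leading 2 of a list were named after their values were seen. Their counts stand beside the 29.0% of all genes called at 3 days and the 54.5% at 7 days against SB, and the 33.2% called between 7 and 3 days. Of 13 genes for TGFβ ligands, receptors and signaling SMADs, 4 were higher than SB at 3 days (TGFB1, TGFB3, TGFBR1 and TGFBR2) and 2 lower (TGFB2 and SMAD3). At 7 days 7 were higher and 2 lower. The ligand genes led in both directions at 7 days, where TGFB2 had fallen by 2.92 on the log2 scale (adjusted p = 6.89e-08) and TGFB1 was 2.37 higher (adjusted p = 6.66e-08). SMAD3, the target of several of the feedback proteins, had fallen by 1.15.

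Of 10 tested genes of the BMP arm (receptors, SMADs and the ID targets), 4 were higher at 3 days (BMPR1B, BMPR2, ACVR1 and ID2), 1 was lower (ID3), and 7 were higher at 7 days. BMPR1B, a BMP type I receptor, was 2.95 above SB at 7 days and ID2, a transcriptional inhibitor induced by BMP, 2.54. From 3 to 7 days 8 of the BMP genes rose, but 4 of them passed without the first 7-day library and 5 without any other single library of these groups.

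Partners and neighbours of the feedback proteins had smaller differences. Of 11 corepressor partners, which SKI, SKIL and the TGIF proteins recruit, 3 were higher at 3 days, NCOR1 and HDAC1 among them. This count was 1 when the first SB or the first 3-day library was left out and 0 when the second 3-day library was. At 7 days 2 were higher, HDAC1 among them, and 2 lower (TBL1XR1 and CTBP2, which had fallen by 0.39).

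Of 13 other ubiquitin ligases and deubiquitinases that act on the pathway, 1 was higher at 3 days (USP9X, a deubiquitinase of SMAD4), and none passed without the first 3-day library. At 7 days 3 were higher (RNF111, USP11 and USP9X) and 4 lower (NEDD4L, STUB1, USP15 and UCHL5). These 7 of 13 are near the share of all genes called at 7 days. NEDD4L, a ligase of SMAD2 and SMAD3, had fallen by 0.74 and the chaperone-associated ligase STUB1 by 0.69. RNF111, also called Arkadia, which degrades SMAD7, SKI and SKIL proteins, was 0.56 above SB at 7 days.

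Of 9 tested other intracellular inhibitors, 4 were higher at 3 days (PPM1A, FKBP1A, LEMD3 and TOB1), a count of 2 without the first SB or the second 3-day library and of 1 without the first 3-day library. At 7 days 5 were higher, now with ZNF451, and 2 were lower (PPP1R15A and TGFBRAP1). PPP1R15A, which guides a phosphatase to the type I receptor with SMAD7, had fallen by 1.83 (adjusted p = 2.75e-07), and the antiproliferative gene TOB1 was 1.08 higher.

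Of 5 tested extracellular antagonists, 3 were higher at 3 days (FSTL3, NOG and TWSG1), but 1 without the first 3-day library. At 7 days 4 were higher, now with LEFTY1, and 1 was lower (GREM1). LEFTY1, at 0 and 5 in SB, 4 and 5 at 3 days and 62 and 65 at 7 days, passed the filter only through the 7-day libraries, where it had to differ. FSTL3, a secreted binder of activins, went from 172 and 152 in SB to 2942 and 3427 at 3 days and 3247 and 2539 at 7 days. Its log2 difference from SB was 4.29 and 4.14 (adjusted p = 1.67e-09 and 5.62e-10).

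The median log2 fold change at 7 days against SB was 0.28 for the ligands, receptors and SMADs, 0.79 for the BMP arm, -0.12 for the corepressor partners, 0.08 for the other ligases and deubiquitinases and 0.27 for the other intracellular inhibitors, beside 1.01 for the 10 feedback genes. For the extracellular antagonists no median is given, since only 5 of the 12 listed genes were tested. No difference between lists was tested. The 9 TGFβ target genes of the response check, which included LTBP2 (5.94 above SB at 7 days), were all higher at 3 days, and 8 were higher and 1 lower (CTGF) at 7 days.

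**Figure D5:**
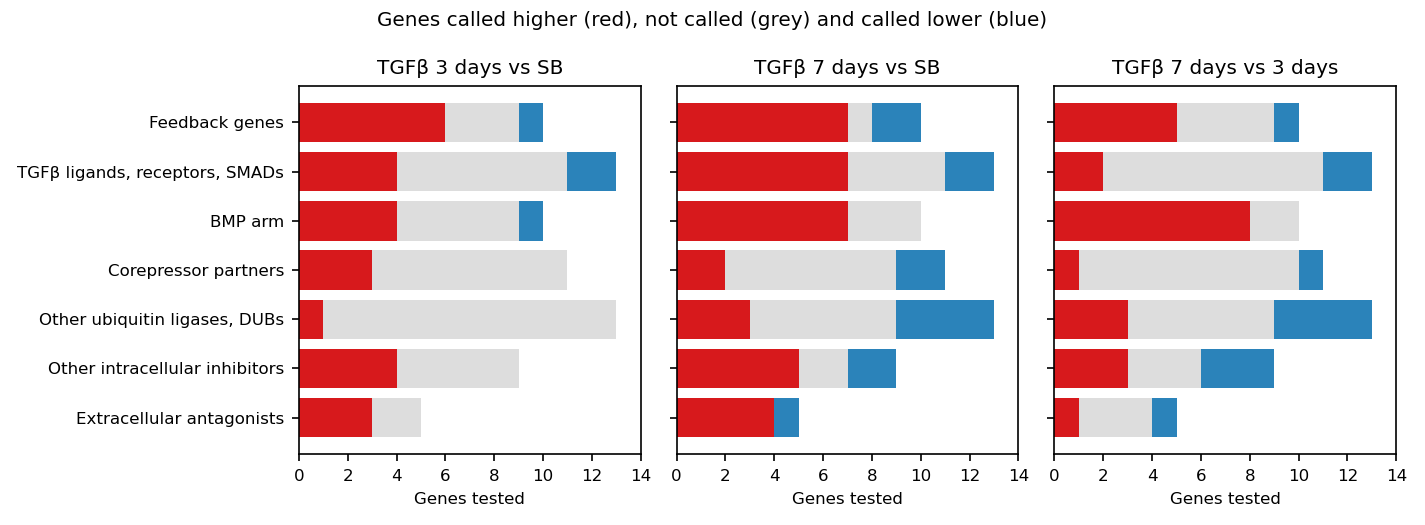
Number of genes tested (x axis) in the feedback group and 6 other pathway lists (y axis), split into called higher (red), not called (grey) and called lower (blue) in the 3 comparisons. The feedback genes have 6, 7 and 5 called higher, and the BMP arm has 8 of 10 called higher between 7 and 3 days.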

How the data were processed

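The authors checked read pairs with FastQC 0.11.5, aligned them with STAR to hg19, counted unique alignments per gene by HTSeq 0.6.1p1 and normalized the counts by library size with DESeq2 3.4. The deposited table holds these normalized counts, recorded here under the unit score, since they are rounded to whole numbers and are not read counts. The annotation release is not given in the sources used here. limma 3.58.1 under R 4.3.3 was fitted to log2(value + 1) for the 14395 genes whose mean reached 10, over all 6 libraries, without covariates and with 3 residual degrees of freedom. The smallest two-sided p of an exact permutation test is 0.333 at 2 libraries against 2, so p-values come from the model across genes. A count model was not used, since it needs read counts. The same fit was tested on simulated data.

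Exon lengths, positions and starts come from GENCODE v44lift37 on GRCh37. The 10 genes and the other lists were chosen with earlier results of these data known. Every one of the 10 genes is named, and from each other list up to 2 called genes, those with the largest change among genes whose mean reached 100. CTGF was named after its value was seen, and some genes of these lists are not reported here. Other settings were a pseudocount of 0.5 or 5, no filter or a mean of at least 50, 3 other scalings, no trend, 4 libraries only, the replicate block and each library left out. Figures were drawn with matplotlib 3.10.9.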

Additional observations from a re-analysis of the deposited data

Results flagged for a closer look

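The change from SB differed between 3 and 7 days of TGFβ, by the test of 7 days against 3 days, for 6 of the 10 feedback genes. On the log2 scale the difference was 2.15 for SMAD6, 1.17 for PMEPA1, 0.99 for SKIL, 0.69 for BAMBI, 0.35 for TGIF1 and -0.37 for SKI, and the values of BAMBI, TGIF1 and SKI rested on single libraries as given above. With 2 libraries per group, no library could be singled out as far from its group.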

How the results depend on the processing

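Of 420 values of single feedback genes recomputed under the alternatives, 389 kept their direction and side of the threshold. The calls of SMAD7, SMAD6, SKIL, PMEPA1, SMURF1 and TGIF1 against SB held in all of them. Those that reversed were not called in the report: at 3 days against SB, BAMBI ranged from -0.41 to 0.063 with 1 library left out, SKI from -0.20 to 0.053 and SMURF2 from -0.018 to 0.079, and SMURF2 was -0.025 with equal library totals. The count of called feedback genes between 7 and 3 days fell from 6 to 3 without the filter on low values, where 19977 genes share the adjustment, and ranged from 3 to 5 with 1 library left out. Against SB, 6 to 7 were called at 3 days and 7 to 8 at 7 days when 1 library was left out. The median log2 fold change moved to 0.71 at 3 days and 0.96 at 7 days with equal library totals, which also shift the median of all genes to -0.08 and -0.05. Between 7 and 3 days, the median ranged from 0.26 to 0.32 with 1 library left out. With the replicate block, the counts were 7, 9 and 6, as without it. The labels do not say whether libraries of equal replicate number were handled together, and the following correlations do not settle it. Deviations of same-numbered libraries correlated across genes at 0.21 (SB and 3 days), -0.13 (SB and 7 days) and -0.65 (3 and 7 days). The -0.65 means that 3-day and 7-day libraries of unlike number deviated together. The replicate block does not take up such a relation, and the test treats these libraries as independent. Of 294 counts over the other lists, 256 stayed within 1.5 times the reported one. The cause of these shifts was not tested. The spread of 2 libraries and the low SB level of SMAD6 limit the precision.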
